A study of Mus musculus with 12 samples.

Results

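The 8 genes described here encode structural proteins of the myelin sheath or a factor that switches it on: Mbp, Pmp22, Mag, Prx, Cnp, Ncmap, Egr2 and Cldn19. They were taken by gene symbol, and all 8 were among the 32289 genes with a row in the count tables. Their unique molecular identifiers (UMIs, 1 per captured mRNA molecule) were followed in single cells of the superior mesenteric ganglion (SMG), a sympathetic ganglion of the abdomen in which neuroblastoma arises in Th-MYCN mice. All animals were of the strain 129+Ter/SvJcl, and the groups were 3-week-old wild-type (WT, 1 mouse), 3-week-old Th-MYCN+/- (10 mice) and 6-week-old Th-MYCN+/- (1 mouse). Th-MYCN+/- animals are hemizygous for human MYCN under the rat tyrosine hydroxylase promoter, which is active in sympathetic cells, so the transgene is not directed at glia. The 6-week-old ganglion had been picked because a tumor was visible by eye, and the WT and 6-week groups hold a single mouse each, so no test between groups was made and the tests below run over the 10 separate 3-week-old Th-MYCN+/- mice.

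Myelin is a membrane wound around an axon, made by Schwann cells in peripheral nerves. Mbp (myelin basic protein) holds the cytoplasmic faces of the membrane together, and Pmp22 (peripheral myelin protein 22) is a tetraspan protein of the compact layers. Mag (myelin associated glycoprotein) sits on the innermost membrane facing the axon, Prx (periaxin) is a scaffold that links the outermost membrane to the basal lamina, and Cnp (a cyclic nucleotide phosphodiesterase), Ncmap (noncompact myelin associated protein) and Cldn19 (a claudin of the tight junctions between myelin layers) belong to its noncompact parts. Egr2 is the zinc finger transcription factor that Schwann cells need to myelinate, and it also belongs to a family of factors that are induced within minutes of a stimulus. In sympathetic ganglia most postganglionic axons carry no myelin, and the commonest glial cell is the satellite cell that wraps the neuron bodies.

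The 5 members whose UMIs lay in the fewest Schwann-like cells were Cldn19, Ncmap, Prx, Mag and Egr2, and the 250 bases before the start of each are shown so that what lies upstream of them can be compared. They are RefSeq sequences of build GRCm38.p6, read along the strand of the gene: Ncmap at chr4:135398228-135398477 (minus strand), Cldn19 at chr4:119255191-119255440 (plus), Prx at chr7:27499074-27499323 (plus), Mag at chr7:30914864-30915113 (minus) and Egr2 at chr10:67535249-67535498 (plus). Capitals mark CTTTGT, which is the SOX core ACAAAG on the opposite strand.
Ncmap: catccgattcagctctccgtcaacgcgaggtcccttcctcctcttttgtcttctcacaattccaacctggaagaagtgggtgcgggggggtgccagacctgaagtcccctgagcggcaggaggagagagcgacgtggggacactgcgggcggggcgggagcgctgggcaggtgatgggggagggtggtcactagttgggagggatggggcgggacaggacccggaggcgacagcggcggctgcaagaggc
Cldn19: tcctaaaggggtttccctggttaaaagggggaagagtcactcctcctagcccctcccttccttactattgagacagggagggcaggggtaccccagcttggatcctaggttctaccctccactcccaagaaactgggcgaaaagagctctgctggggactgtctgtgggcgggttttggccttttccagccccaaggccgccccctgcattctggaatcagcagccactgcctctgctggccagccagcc
Prx: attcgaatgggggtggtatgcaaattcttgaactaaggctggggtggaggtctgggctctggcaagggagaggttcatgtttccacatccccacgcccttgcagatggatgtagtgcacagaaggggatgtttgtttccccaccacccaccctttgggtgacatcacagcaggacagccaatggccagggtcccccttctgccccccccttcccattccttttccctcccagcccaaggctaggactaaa
Mag: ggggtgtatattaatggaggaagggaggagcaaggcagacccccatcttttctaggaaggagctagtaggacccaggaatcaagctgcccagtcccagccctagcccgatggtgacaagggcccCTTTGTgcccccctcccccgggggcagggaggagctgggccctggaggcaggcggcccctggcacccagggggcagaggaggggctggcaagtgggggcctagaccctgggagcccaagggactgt
Egr2: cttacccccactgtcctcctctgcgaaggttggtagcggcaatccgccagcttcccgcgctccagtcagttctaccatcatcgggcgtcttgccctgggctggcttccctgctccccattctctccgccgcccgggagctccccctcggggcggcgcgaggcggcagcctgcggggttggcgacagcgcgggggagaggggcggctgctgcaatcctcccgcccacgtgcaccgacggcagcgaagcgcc
A window was found for 7 of the 8 members, counting Cnp and Pmp22. The letters ACAAAG and ACAATG (cores of SOX factor sites), GCGNGGGCG (the EGR site) and TGACGTCA (the cyclic AMP response element) were searched on both strands. ACAAAG lay 126 to 121 bases before the start of Mag on the opposite strand and 167 to 162 bases before the start of Cnp on the same strand, and 16.5% of all 32851 mouse windows of this length hold it. None of the 7 windows held ACAATG, GCGNGGGCG or TGACGTCA, which are in 10.7%, 4.70% and 1.55% of all windows. The windows of Egr2 (71.2% G or C), Ncmap (66.0%), Mag (66.0%), Cldn19 (59.2%), Cnp (57.2%) and Prx (56.4%) lay above the median of all windows (52.4%), and that of Pmp22 (48.8%) lay below it.

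After filtering, 12022 cells remained, 522 to 1839 per mouse, from libraries of 1147772 to 6388766 UMIs. Of the barcodes, 92 occurred in more than 1 library. Cells were clustered without the 8 members and without 13 other myelin genes, and clusters were named from marker genes. Schwann-like cells numbered 2890 and passed 11 of 12 Schwann cell markers. These markers include the satellite glia genes Fabp7 and Apoe. The class can thus hold satellite glia together with any Schwann cells, and it was not split into those types. The library of replicate 2 of the 3-week Th-MYCN+/- mice stood apart, with 7 Schwann-like cells and with 1.958% neuroblast-like cells against 20.1 to 50.5% in the other 9 mice.

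The myelin genes were concentrated in the Schwann-like cells, with a single exception. These cells made up 21.1% of the cells and 9.18% of the UMIs of the 3-week Th-MYCN+/- mice. They held 85.5% of the Mbp UMIs (4192 of 4905), 78.0% of those of Cnp, 80.0% of Mag, 83.2% of Egr2, 88.1% of Prx, 71.6% of Ncmap and 95.5% of Cldn19. For Pmp22 the share was 34.2%, and the ganglion-like cells, which are the sympathetic neurons, held 51.4%. Of the remaining Ncmap UMIs most lay in the ganglion-like cells, at 21.6% of the total, below the 31.3% of all UMIs that these cells held. Of these 22 Ncmap UMIs, 13 came from replicate 4.

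**Figure D1:**
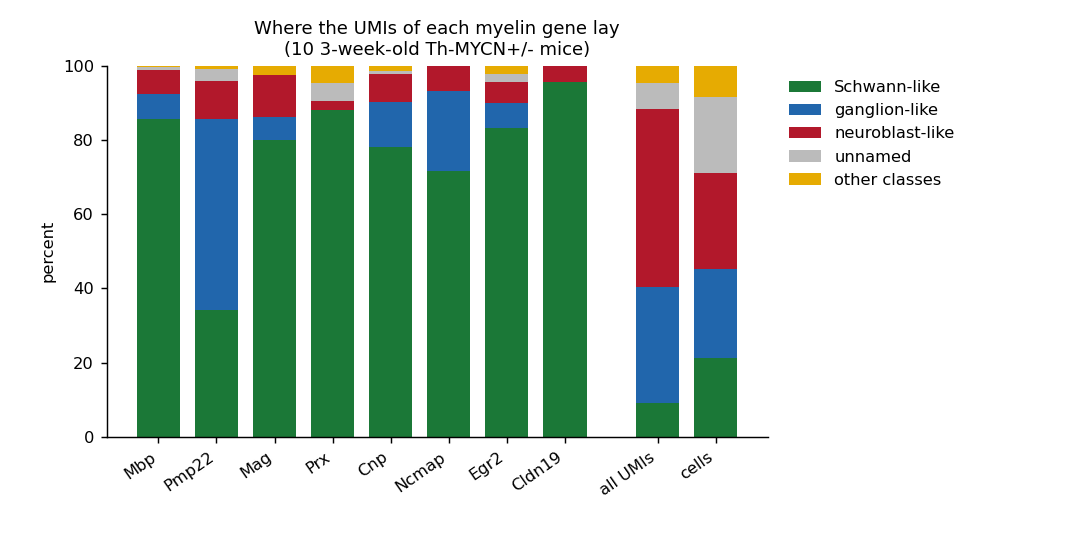
Share of each gene's UMIs (percent, y axis) found in each class of cells of the 10 3-week Th-MYCN+/- mice, with the shares of all UMIs and of all cells as the last bars. Schwann-like cells hold between 71.6% and 95.5% of the UMIs of 7 genes, and 34.2% for Pmp22, of which ganglion-like cells hold 51.4%.

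Levels are given in CPM, the UMIs of a gene scaled to 1000000 UMIs of the class in 1 mouse. Since UMIs at the 3' end are not scaled to transcript length, levels of different genes were not ranked against each other. In Schwann-like cells of the 10 3-week Th-MYCN+/- mice, the Mbp level ran from 1150 over a median of 1682 to 2573 CPM. In neuroblast-like cells, the class from which tumors of this model grow, the Mbp level averaged 40.6 ± 48.1 CPM (SD, n = 10), in ganglion-like cells 53.5 ± 28.5 CPM and in endothelial-like cells 18.9 ± 48.6 CPM. No mouse had a level in any of these classes that reached the lowest Schwann-like value. In the edgeR fit Mbp was higher in Schwann-like than in neuroblast-like cells by 5.95 on the log2 scale (SE 0.27, adjusted p = 9.21e-34), and higher than in ganglion-like and endothelial-like cells by 5.27 (SE 0.27, adjusted p = 5.33e-30) and 7.07 (SE 0.40, adjusted p = 9.26e-28).

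Cnp was likewise highest in the Schwann-like cells. Its level in Schwann-like cells ran from 489 over a median of 1920 to 3320 CPM, where the lowest value came from the 7 cells of replicate 2 and the next lowest was 1141 CPM. The other classes averaged 63.6 ± 77.6 CPM (neuroblast-like), 90.7 ± 23.5 CPM (ganglion-like) and 62.7 ± 45.1 CPM (endothelial-like), all n = 10 mice. The log2 differences were 5.51 (SE 0.27, adjusted p = 8.54e-32), 4.51 (SE 0.26, adjusted p = 6.67e-27) and 5.13 (SE 0.32, adjusted p = 4.23e-25). Replicate 2 also had the highest Mbp and Cnp levels among the neuroblast-like cells, at 177 and 283 CPM from 5 and 8 UMIs, and without it the differences from the neuroblast-like cells were 6.05 for Mbp and 5.67 for Cnp.

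Pmp22 was the member with a second class of cells. Its Schwann-like level ran from 1027 over a median of 1749 to 2268 CPM, and its ganglion-like level from 634 over 808 to 921 CPM, so the values of the classes did not overlap. The neuroblast-like cells averaged 104 ± 60.8 CPM and ran from 35.4 to 222 CPM. Schwann-like cells were higher than ganglion-like cells by 1.16 on the log2 scale (SE 0.23, adjusted p = 6.00e-06), and ganglion-like cells were higher than neuroblast-like cells by 2.91 (SE 0.24, adjusted p = 2.69e-18). The Schwann-like excess over neuroblast-like and endothelial-like cells was 4.07 (SE 0.25, adjusted p = 1.05e-25) and 4.79 (SE 0.32, adjusted p = 4.15e-23).

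In the fit over all classes, 3 of the 8 members (Mbp, Pmp22 and Cnp) passed the filter on low counts, and all 3 were higher in Schwann-like cells in each of the 3 comparisons. Of all 4443 genes tested, 33.5% were higher than in neuroblast-like cells, 35.3% higher than in ganglion-like cells and 25.2% higher than in endothelial-like cells. The median log2 difference of the 3 members was 5.51, 4.51 and 5.13, and that of all genes tested was -0.02, 0.16 and 0.16. The split of all genes depended on the scaling: 1488 rose and 1456 fell against neuroblast-like cells with TMM factors, and 1931 rose and 905 fell with DESeq2. Against endothelial-like cells the numbers were 1119 and 870, and with DESeq2 1839 and 555. The 3 members passed the test in the same direction under both.

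The other 5 members are scarce transcripts. In Schwann-like cells of the 10 mice, Egr2 ran from 0 over a median of 61.6 to 80.4 CPM, Mag from 0 over 30.8 to 76.7 CPM, Ncmap from 0 over 17.3 to 118 CPM, Prx from 0 over 12.6 to 35.8 CPM and Cldn19 from 0 over 6.50 to 40.9 CPM. Replicate 2 was at 0 for all 5. In the ganglion-like cells no UMI of Prx or Cldn19 was found, and a count of 0 there allows a level of up to 0.364 CPM. Mag, Ncmap and Egr2 averaged 0.888 ± 1.97, 1.67 ± 1.97 and 1.43 ± 2.11 CPM in them, and 0.639 ± 1.399, 0.424 ± 0.6253 and 0.738 ± 1.006 CPM in the neuroblast-like cells. In the endothelial-like cells Mag, Ncmap, Egr2 and Cldn19 were at 0 UMIs, which allows 4.60 CPM. These limits and all intervals below cover counting error only.

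Exact sign-flip tests over the 10 mice, two-sided and of the mean difference in log2(CPM + 10), gave p = 0.00391 for Mag and Egr2 against neuroblast-like cells, higher in 9 of 10 mice. For Prx, Ncmap and Cldn19 the exact p was 0.00781, with the gene higher in 8 of 10 mice. In the edgeR fit without the filter all 8 members were higher in each comparison, where 17.4%, 15.7% and 12.2% of the 20317 genes were. The log2 differences from neuroblast-like cells in that fit were 5.43 for Egr2, 4.93 for Mag and 4.65 for Ncmap. Prx and Cldn19 had 1 UMI each in the neuroblast-like cells, and their pooled levels in Schwann-like cells were 192 times (counting interval 34.5 to 7592) and 109 times (19.6 to 4309) higher. Against ganglion-like cells, where both were at 0, they were at least 41.98-fold and at least 23.8-fold higher, with the limit of 3 counts over the class. These intervals and limits take the Schwann-like level as fixed, though it rested on 37 UMIs of Prx and 21 of Cldn19.

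Shares of cells with a UMI show the same division. After each cell was thinned to 500 UMIs, Mbp was seen in 52.7% of 1822 Schwann-like cells, against 2.18% of ganglion-like and 1.52% of neuroblast-like cells. For Cnp the shares were 57.0%, 5.23% and 2.12%, and for Pmp22 52.5%, 30.4% and 4.55%. The neuroblast-like share is given as that of a class outside the glia, and the median depths before thinning were 1143, 1345 and 4415 UMIs. Egr2 was seen in 2.69% of thinned Schwann-like cells and 0.0379% of neuroblast-like cells, Mag in 2.03% and 0.114%, Prx and Ncmap in 0.714% against 0% of the neuroblast-like cells, and Cldn19 in 0.384% against 0%. Unthinned, Mbp was seen in 69.2%, 9.98% and 9.54% of the cells of the 3 classes.

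Genes that act with the members were counted from lists. Of 13 other myelin genes, 6 were tested and all 6 were higher in Schwann-like cells in the 3 comparisons. Of 12 regulators and signals that promote myelination, 4 were tested, and 4, 4 and 3 were higher. They include Sox10, the factor that defines the Schwann lineage (7.51 against neuroblast-like cells). Sox10 and Erbb3 of this list were among the markers that named the Schwann-like cells, so a higher level of them there lends no support. Of 7 regulators that restrain myelination, 4 were tested, and 3, 3 and 1 were higher, among them Notch1 (6.06), while Ngfr was lower than in ganglion-like cells (-4.84). Of 10 genes of sterol and fatty acid synthesis, which supply myelin lipid, 6 were tested and 6, 4 and 6 were higher, for example Scd2 (4.04). Of 10 satellite glia genes, 8 were tested, and 7, 6 and 8 were higher. Fabp7, Apoe, Sostdc1 and Sfrp5 of that list were also among the naming markers, so the same holds for them. All 12 immediate early genes were tested, and 12, 12 and 7 were higher, with 3 lower than in endothelial-like cells.

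Pmp22 outside the glia and neurons was less certain. Its level was 320 ± 260 CPM in fibroblast-like cells (0 to 676 CPM, n = 9 mice) and 310 ± 253 CPM in myofibroblast-like cells (0 to 726 CPM, n = 9), from 33 and 31 UMIs in all. Endothelial-like cells stood at 71.8 ± 69.2 CPM (n = 10). In all 3 classes the mice overlapped with the range of the neuroblast-like cells. Against neuroblast-like cells, fibroblast-like cells were higher by 1.04 (SE 0.41, adjusted p = 0.0248). Myofibroblast-like cells differed by 0.73 (SE 0.39, adjusted p = 0.109) and endothelial-like cells by -0.72 (SE 0.34, adjusted p = 0.0622), neither past the threshold. In these comparisons 54.6%, 53.2% and 61.2% of all genes tested passed, and 61.4% between ganglion-like and neuroblast-like cells. The fibroblast-like call was lost without replicate 3 (0.96, adjusted p = 0.0682), without replicate 4 (0.86, adjusted p = 0.116) and without replicate 6 (0.55, adjusted p = 0.356). It was also lost without the filter on low counts (0.70, adjusted p = 0.193). Endothelial-like cells passed the threshold without that filter (-1.03, adjusted p = 0.00517), without replicate 2 (-1.14, adjusted p = 0.00171) and without any one of replicates 3, 6, 8 and 9. Myofibroblast-like cells passed without replicate 7 (0.97, adjusted p = 0.0405) and without TMM factors (1.42, adjusted p = 0.00203). The split of all genes against neuroblast-like cells turned with the scaling here: 726 rose and 1699 fell in fibroblast-like cells, and 1709 and 419 with DESeq2, where the Pmp22 difference was 2.31. In myofibroblast-like cells 837 rose and 1528 fell, and 1551 and 541 with DESeq2, where Pmp22 passed at 1.69 (adjusted p = 0.000117). In ganglion-like cells 1417 rose and 1309 fell, and 2124 and 679 with DESeq2.

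**Figure D2:**
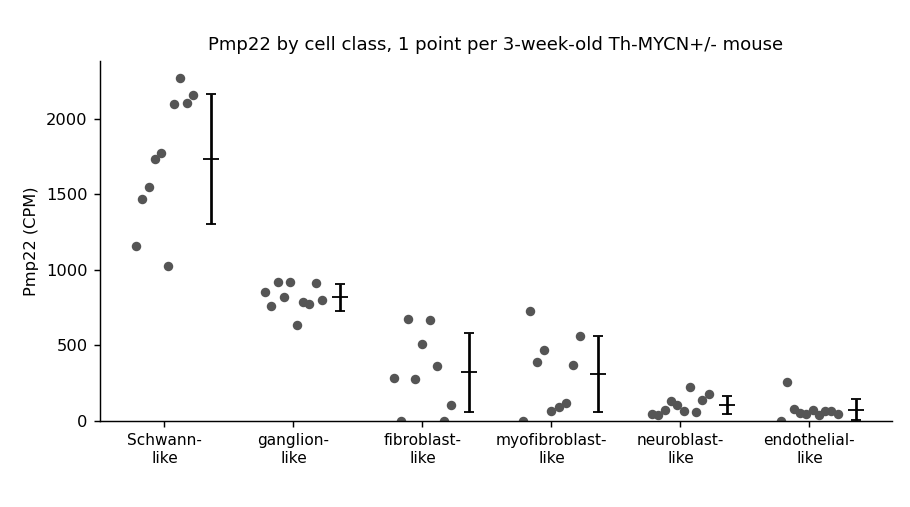
Pmp22 level (CPM, y axis) in each 3-week Th-MYCN+/- mouse with at least 5 cells of the class, 1 point per mouse, with the mean and SD beside the points. Ganglion-like cells lie between 634 and 921 CPM, below all Schwann-like and above all neuroblast-like values, while the fibroblast-like and myofibroblast-like points scatter from 0 to 676 and to 726 CPM.

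Free RNA, measured in barcodes with too few UMIs to be cells, held Mbp at 68.5 to 602 CPM and Pmp22 at 191 to 778 CPM across the 12 libraries. The highest Mbp value was that of the WT library. Cnp in free RNA ran from 109 to 635 CPM. In the ganglion-like cells of the 11 Th-MYCN+/- mice, free RNA made up at most 13.2 to 45.1% of the UMIs. In replicate 7 this limit was 27.5%, with Mbp at 433 CPM in free RNA and 76.8 CPM in these cells. In replicate 8 it was 45.1%, with Mbp at 68.5 and 87.7 CPM. The levels and shares of cells given above are not corrected for free RNA, and its part in them was not tested. The 38 neuroblast-like cells of the WT mouse had Mbp at 2279 CPM, Cnp at 2991 CPM and Pmp22 at 926 CPM, against 2139, 2244 and 1561 CPM in its Schwann-like cells, while the neuroblast-like cells of the 11 Th-MYCN+/- mice had Mbp at 18.5 to 177 CPM. The part of glial RNA in these 38 cells was not tested, and their values enter no comparison.

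Within the Schwann-like cells the members fell into common and rare transcripts. Over the 2890 Schwann-like cells of the 12 mice, Cnp was seen in 2118, Mbp in 1992 and Pmp22 in 1946 cells, and the 10 cells richest in each held 8.63%, 7.51% and 11.3% of its UMIs. Egr2 was seen in 156 and Mag in 110 cells, mostly as a single UMI, with a maximum of 3 UMIs in a cell. Prx was seen in 43 cells, Ncmap in 32 and Cldn19 in 23. Ncmap stood out for its unevenness: 6 cells held 50% of its 170 UMIs, 10 cells held 71.8% and a single cell had 44. Cldn19 was like it on fewer UMIs, with 65.8% of 38 UMIs in 10 cells, and Prx had 41.1% of 56.

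To see whether the members gathered in the same cells, Schwann-like cells of at least 500 UMIs were split by 9 myelin genes that are not members (among them Mal, Pllp, Drp2, Gldn, Ugt8a, Fa2h, Gjb1 and Bcas1), counted after thinning to 500 UMIs. Cells with UMIs of at least 2 of these genes were compared with the rest in the 8 mice that had at least 5 such cells, 124 against 1570 cells. The Mbp level was 2676 to 12098 CPM in the cells with other myelin genes and 1160 to 2124 CPM in the rest, with no overlap and higher in 8 of 8 mice. The means were 5081 ± 3152 and 1532 ± 302 CPM (SD, n = 8). Replicate 3 was highest, with 12098 against 1282 CPM, and replicate 5 lowest, with 2676 against 1529 CPM. The log2 difference was 1.55 (SE 0.21, adjusted p = 5.59e-05).

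Pmp22 rose by about as much. Its level was 1982 to 10147 CPM in the cells with other myelin genes and 783 to 2212 CPM in the rest, higher in 8 of 8 mice, and the ranges overlapped because replicate 5 moved only from 1744 to 1982 CPM. The log2 difference was 1.59 (SE 0.25, adjusted p = 0.000304). Cnp moved less, from 2078 ± 566 to 3127 ± 606 CPM (n = 8), higher in 8 of 8 mice with overlapping ranges, and its log2 difference was 0.58 (SE 0.14, adjusted p = 0.0278). The Cnp call was lost without any one of replicates 3, 4, 5, 7, 9 and 10, with differences of 0.49 to 0.61 and adjusted p of 0.0544 to 0.135. All 3 members tested were thus higher, where 1.32% of the 983 genes tested were higher and 0.509% lower. Their median difference was 1.55 and that of all genes tested was -0.03.

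Ncmap was almost confined to the cells with other myelin genes: 65 UMIs were found in the 124 cells and 2 in the 1570 others. By mouse the counts were 9 against 0 in replicate 3, 7 against 1 in replicate 4, 5 against 0 in replicate 5, 21 against 0 in replicate 7, 9 against 0 in replicate 9 and 14 against 1 in replicate 10, and replicates 6 and 8 had none in either. The exact sign-flip test gave p = 0.0313 with Ncmap higher in 6 of 8 mice. The smallest p is 0.00781 if all 8 mice differ, but replicates 6 and 8 did not, so 0.0313 was the smallest possible here. Without any one of the 6 mice that had Ncmap UMIs the exact p was 0.0625. That is the smallest p the remaining mice allow, so this change was fixed in advance.

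Mag had 16 UMIs against 66, at 151 ± 134 and 31.8 ± 13.1 CPM, higher in 7 of 8 mice (exact p = 0.0469). Without any one of replicates 3, 4, 5, 6, 7, 8 and 10 its exact p was 0.0625 to 0.0938. With barcodes of at least 500 UMIs taken as cells its direction turned (-0.050, exact p = 0.930), and under another random thinning it stood at 0.60 (exact p = 0.531). Prx had 13 UMIs against 18 (exact p = 0.0781, higher in 5 and lower in 2 of 8 mice) and Cldn19 had 12 against 7 (exact p = 0.0859, higher in 5 and lower in 3). Egr2, the regulator of the set, had 7 against 135 UMIs and levels of 52.9 ± 45.4 and 58.6 ± 25.9 CPM, higher in 2 and lower in 5 of 8 mice (exact p = 0.328). In edgeR without the filter, 5 members passed, where 0.255% of 14909 genes were higher: Ncmap (7.37, on 2 UMIs in the rest), Cldn19 (3.54), Prx (2.68), Pmp22 (0.89) and Mbp (0.85), while Cnp stood at -0.11.

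Few genes of the other lists passed between these cells. The satellite glia genes Fabp7 (a fatty acid binding protein, -0.999, adjusted p = 0.00521) and Apoe (apolipoprotein E, -0.42, adjusted p = 0.0222) were lower in the cells with other myelin genes, 2 of the 6 tested. Of 8 other myelin genes tested, 4 were higher, and all 4 had been used to choose the cells (Pllp, Bcas1 and Mal among them), whereas Cd9 (0.44), Cadm4 (0.59) and Gal3st1 (0.74) did not pass. None of 3 promoting regulators, 1 restraining regulator, 5 lipid synthesis genes and 7 immediate early genes tested passed. Outside the lists, Cntfr (the ciliary neurotrophic factor receptor, -1.50, adjusted p = 0.0492), Igfbp4 (-1.32, adjusted p = 0.0152) and Serpine2 (-0.95, adjusted p = 0.0249) fell the most among genes lower in every mouse.

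The gathering was steepest in a handful of cells. In the 10 mice, 1091 Schwann-like cells had none of the 9 genes, 603 had 1, 112 had 2 and 16 had 3 or more, with median depths of 1220, 1082, 982 and 824.5 UMIs. The 16 cells were 0.878% of the cells and 0.677% of the UMIs, and they held 89.9% of the Ncmap UMIs (62 of 69), 52.6% of those of Cldn19 (10 of 19) and 42.4% of those of Prx (14 of 33). From none over 1 and 2 to at least 3 genes, the Mbp level went from 1335 over 1850 and 2576 to 22989 CPM, that of Pmp22 from 1499 over 1892 and 2203 to 31149 CPM and that of Cnp from 1747 over 2313 and 2476 to 7059 CPM. Mag went from 25.0 over 47.0 and 74.5 to 453 CPM. Egr2 stood at 72.8, 47.0 and 33.1 CPM in the first 3 classes, on 105, 33 and 4 UMIs. The 95% Poisson intervals of the first 2, 59.6 to 88.2 and 32.3 to 66.0 CPM, overlapped, but each excluded the value of the other. That of the third, 9.03 to 84.8 CPM, covers the values of the first 2. In the 16 cells Egr2 rested on 3 UMIs (194 CPM, 95% Poisson interval 40.1 to 568). These are sums over cells of the 10 mice, and the last class holds under 20 cells from 7 mice, so no test was made of it.

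**Figure D3:**
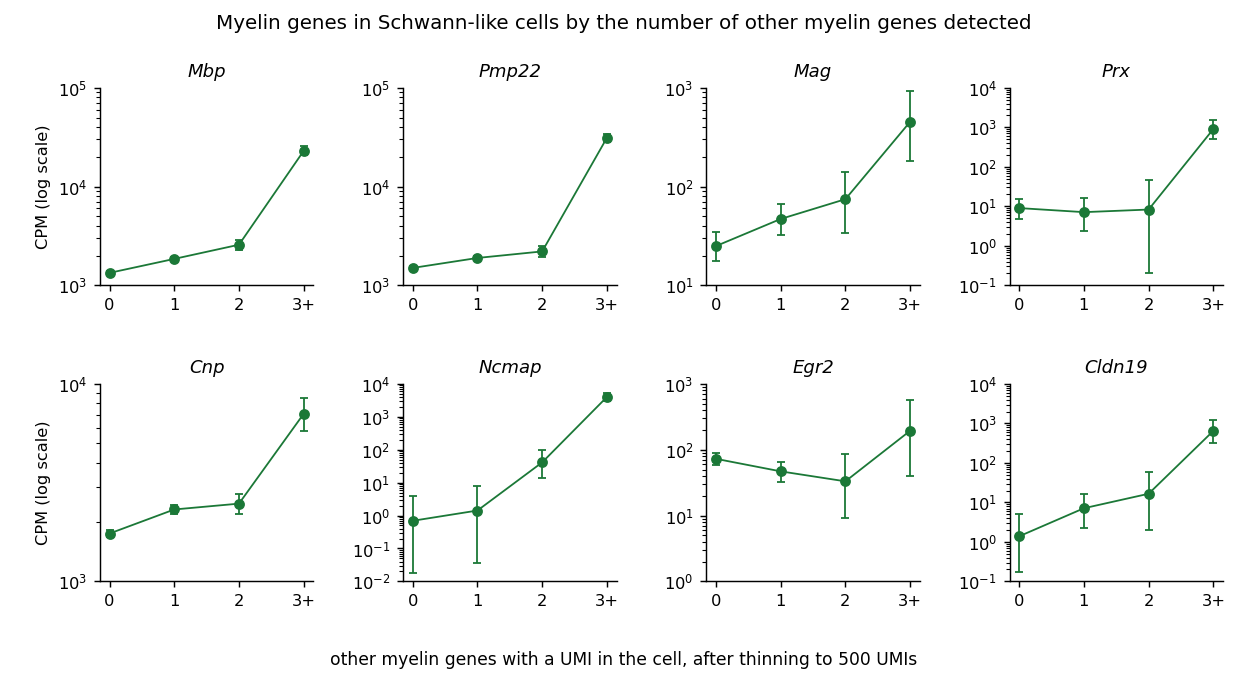
Level of each member (CPM, log y axis) in Schwann-like cells of the 3-week Th-MYCN+/- mice with UMIs of 0, 1, 2 or at least 3 of the 9 other myelin genes (x axis), with 95% Poisson intervals. Mbp and Pmp22 reach 22989 and 31149 CPM in the 16 cells of the last class, and Ncmap rises from 0.694 to 4015 CPM. The intervals of Egr2 in the first 3 classes overlap, though those for 0 and 1 genes each exclude the value of the other.

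The 16 cells were also set beside the cells with none of the 9 genes, for 3 of the satellite glia genes and some others. These are pooled sums without a spread over mice and were not tested. From cells with none of the 9 genes to these 16 cells, Fabp7 went from 9474 to 583 CPM, Apoe from 81507 to 13599 CPM and the adhesion molecule Ncam1 from 547 to 0 CPM. Pou3f1, a POU factor of the promyelinating stage, went from 2.77 to 518 CPM on 4 and 8 UMIs, and Sox10 from 242 to 130 CPM. The 16 cells hold 15442 UMIs in all, so the Sox10, Fabp7 and Ncam1 values there, and the neuroblast marker sum below, rest on very few UMIs. Cd9, a tetraspanin, went from 4509 to 13988 CPM. The summed level of the 12 Schwann markers went from 104269.8 to 22795 CPM. Apoe and Fabp7 are among these markers and make up most of the sum in both, so it largely repeats their fall. The summed level of the ganglion cell markers went from 1789 to 1684 CPM and that of the neuroblast markers from 1578 to 324 CPM. Single cells give the scale: among the 16, a cell of replicate 10 with 2953 UMIs had 87 of Mbp, 132 of Pmp22, 26 of Cnp, 6 of Ncmap and 4 of Cldn19. Another of the 16, from replicate 3 with 552 UMIs, had no Mbp UMI and 1 of Pmp22. Outside the 16, a cell of the 6-week mouse with 837 UMIs had 44 of Ncmap, 27 of Pmp22 and 23 of Mbp.

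Egr2 differed from the other members within the glia by following the immediate early genes. Schwann-like cells were split within each mouse at the median of the thinned UMIs of 12 immediate early genes (Fos, Jun, Egr1 and others, Egr2 not included), 812 against 1004 cells in 9 mice. Egr2 had 127 UMIs in the cells rich in immediate early genes and 18 in the rest. Its level was 0 to 158 CPM with a mean of 104 ± 48.4 CPM in the first and 0 to 27.3 CPM with a mean of 12.4 ± 11.2 CPM in the second (n = 9). The ranges overlapped only through replicate 6, which had no Egr2 UMI in either, and the lowest value of the other 8 mice in the cells rich in immediate early genes was 64.6 CPM. Egr2 was higher in 8 of 9 mice, with a mean difference of 2.25 ± 1.05 in log2(CPM + 10) (exact sign-flip p = 0.00781). With replicate 6 at 0 in both, this was the smallest p possible, where 9 mice that all differ allow 0.00391. It did not pass the filter on low counts, and in edgeR without the filter the log2 difference was 2.88 (SE 0.37, adjusted p = 4.34e-12), where 0.434% of 14962 genes were higher.

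None of the 3 members tested in the filtered fit passed between these cells, where 1.57% of 1589 genes did: Mbp stood at -0.03 (adjusted p = 0.971), Pmp22 at 0.07 (adjusted p = 0.828) and Cnp at 0.25 (adjusted p = 0.345). Their levels overlapped throughout, with Mbp at 1618 ± 481 against 1707 ± 478 CPM, Pmp22 at 1769 ± 497 against 1737 ± 485 CPM and Cnp at 2199 ± 581 against 1918 ± 755 CPM (n = 9). Cnp was higher in 7 of 9 mice, and its exact p of 0.0469 rose to between 0.0625 and 0.0938 when any one of replicates 1, 3, 5, 6, 8, 9 and 10 was left out. For Prx, Ncmap, Mbp, Pmp22, Cldn19 and Mag the exact p was 0.102, 0.516, 0.605, 0.758, 0.797 and 0.980. Of the lists, the 6 immediate early genes tested were higher, as the split made them (Egr1 4.06, Fos 4.04 and Junb 3.75), and no other list had a member past the threshold apart from Jun, which is one of them.

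**Figure D4:**
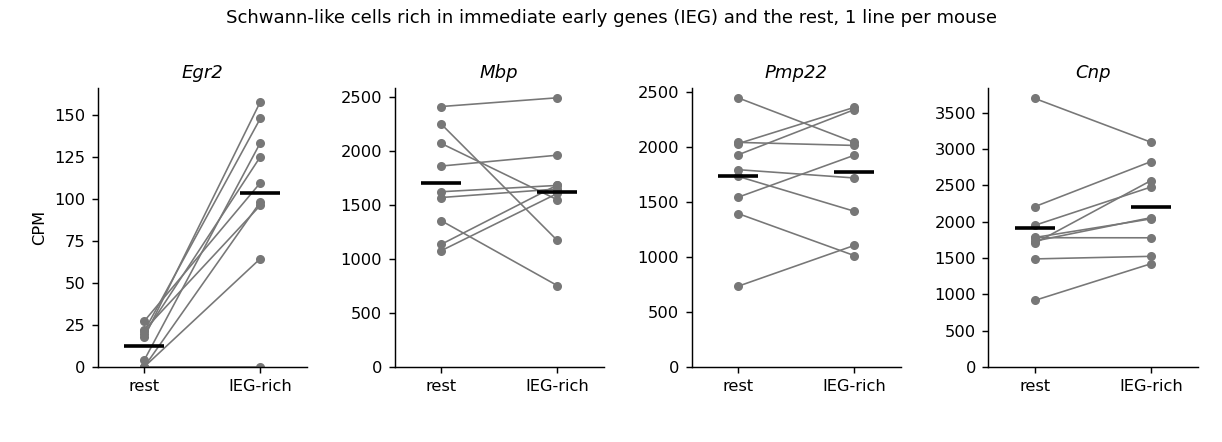
Levels (CPM, y axis) of Egr2, Mbp, Pmp22 and Cnp in the remaining Schwann-like cells and in those rich in immediate early genes, with 1 line per mouse (9 mice) and thick bars for the means. Egr2 goes from a mean of 12.4 to 104 CPM and is higher in 8 of 9 mice, while the lines of Mbp and Pmp22 cross.

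Across the 3 groups the Schwann-like levels of most members overlapped. Mbp stood at 2139 CPM in the WT mouse (95% Poisson interval 1955 to 2337) and 1828 CPM in the 6-week mouse (1710 to 1952), within the 1150 to 2573 CPM of the 3-week Th-MYCN+/- mice. In the same order, Pmp22 was at 1561 (1404 to 1731) and 2116 CPM (1989 to 2249), and Cnp at 2244 (2054 to 2446) and 1459 CPM (1354 to 1570). Egr2, the regulator, was at 60.9 (33.3 to 102) and 30.6 CPM (17.1 to 50.5). Mag was at 43.5 (20.9 to 80.0) and 40.8 CPM (24.9 to 63.0), Prx at 21.7 (7.06 to 50.7) and 28.6 CPM (15.6 to 47.9) and Cldn19 at 13.0 (2.69 to 38.1) and 28.6 CPM (15.6 to 47.9). All these values lay within the range of the 3-week Th-MYCN+/- mice. None of the 5 members with a mean of at least 50 CPM in either group lay outside that range and 2-fold from its mean in the WT mouse, where 8.54% of genes did.

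Ncmap was the exception in the 6-week mouse. It stood at 161 CPM (95% Poisson interval 128 to 201, 79 UMIs), outside the 0 to 118 CPM of the 9 mice with at least 20 Schwann-like cells and 5.14 times their mean of 31.4 ± 34.4 CPM, 1 of 5 members where 3.42% of genes were called. A single cell held 44 of the 79 UMIs, and without it the level was 71.5 CPM, within the range. The WT mouse had 78.3 CPM (46.4 to 124), within the range only through replicate 7, since the next mouse was at 40.4 CPM. Pou3f1 was also called in the 6-week mouse, at 77.5 CPM against a mean of 14.4 CPM (0 to 67.9). No gene of the other lists was called. Ncmap and Pou3f1 met the limit of at least 50 CPM only through the 6-week mouse, since their 3-week means lay below it. A gene that enters in this way can only be called as higher in the 6-week mouse. With 1 mouse in the group, the age, the tumor and the animal cannot be told apart.

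**Figure D5:**
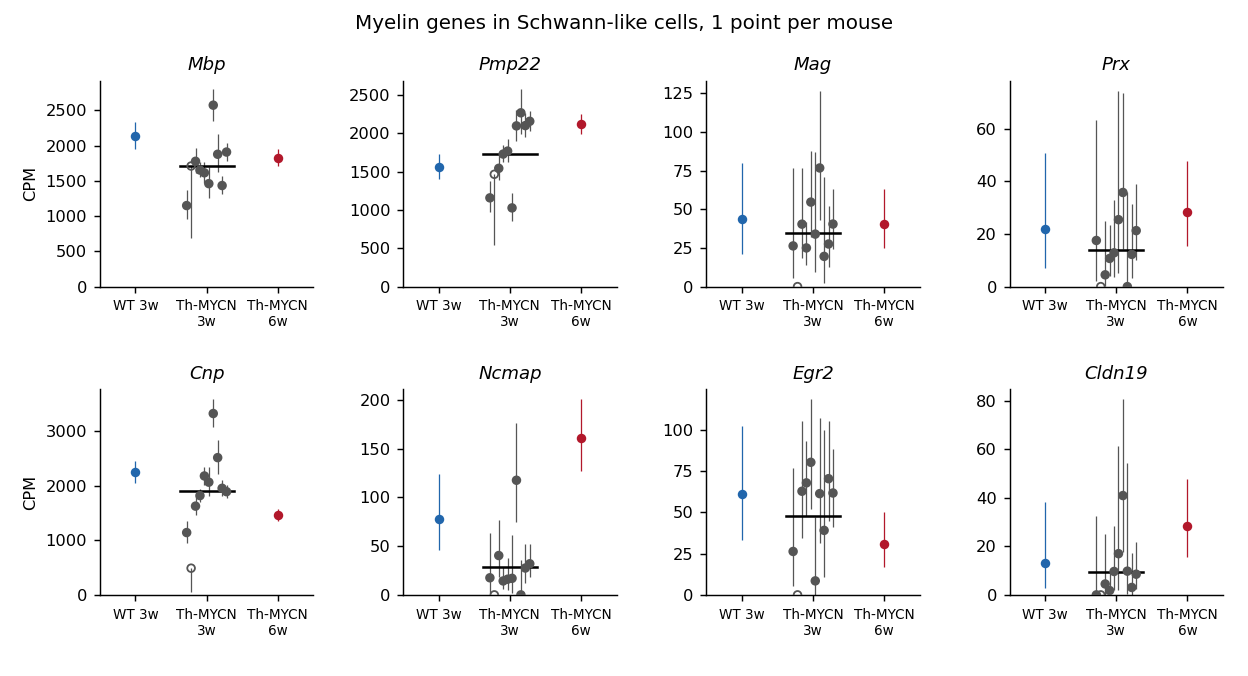
Level of each member (CPM, y axis) in the Schwann-like cells of each mouse, by group, with 95% Poisson intervals, a line at the mean of the 10 3-week Th-MYCN+/- mice, and an open point for replicate 2, which has 7 cells and whose upper interval is not drawn. The WT and 6-week points lie among the 3-week-old ones for every member but Ncmap, where the 6-week mouse is highest at 161 CPM.

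Cells rich in other myelin genes held most of the Ncmap of the mice with the highest levels. Those with at least 3 of the 9 genes were 9 of 303 in the 6-week mouse (2.97%, 95% Clopper-Pearson interval 1.37 to 5.56), 5 of 139 in replicate 7 (3.60%, 1.18 to 8.19), 5 of 208 in replicate 3 and 2 of 194 in the WT mouse, and none were seen in replicates 2, 5 and 6. Without these cells Ncmap was at 35.4 CPM in the 6-week mouse, 10.5 CPM in replicate 7 and 35.1 CPM in the WT mouse. The highest value of a 3-week Th-MYCN+/- mouse was then 16.98 CPM, in replicate 6. The 6-week and WT mice thus stayed above all of these mice, though on few UMIs, and this was not tested. Mbp in the 6-week mouse went from 1828 to 1544 CPM. In these sums a change in the number of such cells and a change in RNA per cell cannot be told apart.

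The levels were also set against the share of neuroblast-like cells in the 9 mice with at least 20 Schwann-like cells, 8 relations in all, with p-values that are not adjusted for their number. For Mag, r was -0.71 (exact permutation p = 0.0308) and rho -0.70 (exact permutation p = 0.0433), and without the 2 mice farthest from the median share (replicates 1 and 8) r was -0.53 (exact permutation p = 0.221). It was no longer past the threshold when any one of replicates 1, 5, 7, 8 and 9 was left out (r from -0.70 to -0.60, exact permutation p from 0.0520 to 0.118), so the call rests on single mice. With log-normalized counts clustered without regression r was 0.36 (exact permutation p = 0.291), the opposite direction. The other 7 did not pass, with r from -0.62 for Ncmap (exact permutation p = 0.0783) over -0.40 for Mbp (exact permutation p = 0.288) to 0.02 for Pmp22 (exact permutation p = 0.969).

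Over 70 sums of a class in a mouse, among 6575 genes, the genes whose log2(CPM + 10) followed the members most closely were these. Mbp was followed by Hspa12a (r = 0.93), Gpm6b (0.92) and Sostdc1 (0.91), and Cnp by Gpm6b (0.83), Sostdc1 (0.83) and Gpr37l1 (0.83). The gene nearest to Ncmap (0.95), Prx (0.83), Mag (0.83) and Cldn19 (0.83) was Ppp1r1b, and Sox10 came next for Ncmap (0.87) and Prx (0.80). Egr2 was followed by Prss35 (0.89), Plekha4 (0.88) and Gal3st1 (0.84), a sulfotransferase of myelin lipid synthesis. For Pmp22 the values were lower, with Chl1, Ppp1r14c and Scd2 at 0.70 each. The sums share libraries and depth, so these values describe the likeness and were not tested. Gpm6b, Sostdc1 and Sox10 were also among the markers that named the Schwann-like cells.

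In the mouse genome (GRCm38) Mbp lies at chr18:82475146-82585637, Pmp22 at chr11:63128982-63159547, Mag at chr7:30899176-30914873, Prx at chr7:27499324-27520214, Cnp at chr11:100574904-100591729, Ncmap at chr4:135369576-135398227, Egr2 at chr10:67535475-67542188 and Cldn19 at chr4:119255414-119262438, all protein-coding. Exons of Prx share 300 bases with the antisense gene Gm15541, those of Cnp 154 bases with Dnajc7 and those of Cldn19 90 bases with Gm12927, each on the opposite strand. The partners had 20, 394 and 0 UMIs in Schwann-like cells against 56, 6092 and 38 for the members. The sources used here do not say whether the authors counted by strand.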

How the data were processed

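Single-cell suspensions of SMG, made with collagenase and TrypLE at 37 °C, were sequenced on the 10x Chromium 3' system, 1 library per mouse. The authors deposited raw UMI counts of every barcode, aligned with Cell Ranger to mm10 plus the human MYCN transgene, without cell calls or classes; versions are not given in the sources used here. Cells were called here after the EmptyDrops method (FDR 0.01) and kept with at least 200 genes, at most 10% mitochondrial and at most 60% ribosomal UMIs, as in the study's methods. Seurat 5.3.0 clustered them after regressing depth, these shares and cell cycle scores, without the members and 13 other myelin genes. Scrublet called 50 cells (0.416%) as doublets, which is too few to rely on, and none were removed. In all, 2259 cells stayed unnamed.

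Counts were summed per mouse and class (at least 5 cells) and tested with edgeR 4.0.16, quasi-likelihood, TMM, mouse as a block, Benjamini-Hochberg over all genes tested, FDR 0.05. Log2 differences come from these fits and CPM from plain sums. DESeq2 1.42.0 was an alternative. Exact sign-flip tests were two-sided over mice. Ranges of cells within the Schwann-like class were set after thinning to 500 UMIs. Pairing by mouse comes from the library: in the same mouse, Schwann-like and neuroblast-like deviations correlated at 0.089 to 0.31 (10 mice), and at -0.019 on average between mice. On simulated counts with log2 changes of 1.5, the Schwann-like against neuroblast-like fit called 163 of 171 changed genes, with 9 false calls among 5642 tested, and the fit between ranges of other myelin genes called 33 of 38, with 2 false calls among 1000.

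The members and lists were chosen with earlier results of these data known. Named were the members, genes of 6 lists, for each member the 3 genes of highest correlation among those with a mean of at least 20 CPM, and for the ranges the 3 genes that rose and the 3 that fell the most, of those called with 1 sign in every mouse. Upstream windows were those nearest the annotated start of the gene. No column was left out. Values of some genes of the lists are not reported here.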

Additional observations from a re-analysis of the deposited data

Results flagged for a closer look

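In 5 of the 30 groups of 4 to 10 mice examined, 1 mouse stood farther from the others than Dixon's 95% limit allows. Chance gives about 1 in 20 for independent values with a normal spread. Some of the values here rest on few UMIs, so that rate need not hold for them. In Schwann-like cells this was replicate 7 of the 3-week Th-MYCN+/- mice for Ncmap, at 118 CPM where the next mouse was at 40.4 CPM, and for Cldn19, at 40.9 CPM where the next was at 16.98 CPM. Replicate 7 also had 5 of the 16 cells with at least 3 other myelin genes, and without its 5 such cells its Ncmap level was 10.5 CPM. In neuroblast-like cells it was replicate 2, the library that stood apart, for Mbp, at 177 CPM where the next mouse was at 33.7 CPM, and for Cnp, at 283 CPM where the next was at 51.2 CPM. These rest on 5 and 8 UMIs in 36 cells. In the comparison of cells with other myelin genes against the rest, Cnp in replicate 3 had a log2 difference of 1.25, and the next mouse had 0.66.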

How the results depend on the processing

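The scarce members limit what these libraries can show: Mag, Prx, Ncmap, Egr2 and Cldn19 passed no filter on low counts, and Ncmap turns on a few cells. In Schwann-like against neuroblast-like, ganglion-like and endothelial-like cells, Mbp, Pmp22 and Cnp passed in the same direction under all alternatives run, with Mbp at 5.57 to 6.93 against neuroblast-like cells and Pmp22 at 0.80 to 1.19 against ganglion-like cells. Mbp against ganglion-like cells was 4.84 to 8.69, highest with free RNA subtracted, and against endothelial-like cells 8.93 without replicate 2. Between the ranges of other myelin genes Mbp was 0.85 to 2.65 and Pmp22 0.81 to 3.26, past the threshold under every alternative and largest with at least 3 genes. Without the filter on low counts the members called rose from 3 to 8 in each of these comparisons, from 3 to 5 between the ranges of other myelin genes and from 0 to 1 (Egr2) between those of immediate early genes. Over the alternatives the genes higher in Schwann-like cells numbered 833 to 3541, 759 to 3199 and 629 to 2487, those higher in cells with other myelin genes 5 to 38, and those called between the ranges of immediate early genes 20 to 108. Without replicate 5, 9 or 10 in turn, the first 3 counts were 969, 954 and 976, 892, 896 and 886, and 719, 710 and 726. The number of classes in which Pmp22 was called against neuroblast-like cells, 2 with the mouse as a block, was 1 without the block and 1 (without replicate 4) to 3 when 1 mouse was left out. For fibroblast-like cells the difference without the block was 0.89 (adjusted p = 0.0577), and without it the Cnp difference between the ranges of other myelin genes was 0.57 (adjusted p = 0.221).

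Over the WT and the 6-week-old mouse together, the number of members called was 2 under the stricter cell filter (500 genes or more, 5% mitochondrial UMIs or less). It was 0 without the cell richest in Ncmap and 1 to 2 when 1 mouse was left out (2 without replicate 7). Without replicate 7 the highest Ncmap level of the 3-week mice was 40.4 CPM, below the 78.3 CPM of the WT mouse. The relations with the share of neuroblast-like cells that passed numbered 0 with the unnamed cluster counted as neuroblast-like, 0 with barcodes of at least 500 UMIs, 0 without the highest 5% of Scrublet scores, 0 with log-normalized clustering, 2 with 1 CPM added before the log and 0 to 2 when 1 mouse was left out (0 without replicate 1, 7 or 9 and 2 without replicate 4 or 6). Results that reversed were Cnp between the ranges of other myelin genes without the filter (-0.11), Mag there with barcodes of at least 500 UMIs (-0.050, exact p = 0.930), Cnp between the ranges of immediate early genes with log-normalized clustering (-0.57, exact p = 0.908) and with no thinning (-0.065, exact p = 0.645), and r of Mag with log-normalized clustering (0.36, permutation p = 0.291 over 10 mice). Mag between the ranges of other myelin genes was past the threshold for 1 thinning and not for another (exact p = 0.531). The cause of these changes was not tested. Egr2 was higher in cells rich in immediate early genes under all 24 alternatives run, with a mean difference of 1.80 to 2.71.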
